A study of Mus musculus with 4 samples.

Results

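RNA from the frontal cortex of quetiapine-treated mice was set against RNA of vehicle-injected mice on 1 dual-colour Agilent mouse oligonucleotide array. Every gene with a ratio on that array was taken, which gave 16240 of the 16504 genes named on the platform. Male ddY mice, an outbred stock, aged 13 weeks were injected intraperitoneally once a day for 28 days. The groups were quetiapine fumarate at 18.75 mg/kg, chlorpromazine HCl at 25 mg/kg, thioridazine HCl at 25 mg/kg, olanzapine at 1.25 mg/kg, and vehicle, which was dilute acetic acid in saline. Each drug had its own array and 1 column of ratios, so there was no replicate for quetiapine over vehicle and no test of it was possible. The number of mice behind an array is not stated in the labels, nor is it stated whether the 4 arrays shared their vehicle RNA. From the study's title, the aim was to classify antipsychotic drugs by gene expression.

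Quetiapine is an antipsychotic drug of the dibenzothiazepine class. It blocks serotonin, dopamine, histamine and alpha-adrenergic receptors, and it is sedating. The frontal cortex, where it was measured here, holds excitatory pyramidal neurons, inhibitory interneurons, glia and vessel cells. Pyramidal neurons transcribe immediate early genes such as Arc within minutes of firing, and both vessel cells and glia transcribe acute-phase and glucocorticoid-responsive genes.

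Values below are log2 ratios of drug over vehicle, so that 1 is a 2-fold higher level in drug-treated cortex and -1 a 2-fold lower one. The deposited values were read as log10 of cyanine 5 (drug) over cyanine 3 (vehicle), a scale and direction that are likely and not stated for the table. If the direction were the reverse, every value above vehicle would lie below it. The dyes were not swapped, so a dye bias cannot be told apart from an effect of the drug. The table holds no signal intensities, so dim spots could not be left out and no level could be given for any gene. A marker of a cell type could therefore be checked for a shift, and not for its presence, and the labelled tissue could not be checked against its markers. In a bulk sample, fewer cells of a type and less RNA per cell cannot be told apart.

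On the quetiapine array the level was 2-fold or more above vehicle for 233 genes (1.43% of the 16240 measured) and 2-fold or more below it for 375 (2.31%). Most genes lay close to vehicle, with 14190 within 1.5-fold of it. The 5th percentile of the log2 ratios was -0.72 and the 95th was 0.59. The upper end reached farther than the lower one. The highest ratio was 5.81 and the lowest -3.69, and 9 genes were at least 8-fold above vehicle. The log2 ratio of a sequence spotted repeatedly on this array had a median SD between spots of 0.10 (48 accessions with at least 10 spots, range 0.03 to 0.59). That SD is the spread between spots within 1 hybridisation and leaves out the spread between mice. Different features of a gene agreed less well. Among 1138 genes with several features, the median SD was 0.22, and 100 had features that differed by at least 1. Of the 608 genes at least 2-fold from vehicle (3.74%), 598 rested on 1 feature.

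Genes are described below in 39 lists, which hold 904 different measured genes, 51 of them in more than 1 list. The lists were chosen with earlier results of these data known, so their ranking is a description only. Members were named largely by their ratio with quetiapine, a choice that favours quetiapine as the most extreme of the drugs. The median log2 ratio of all 16240 genes was 0.01, and 50.9% were above 0. List counts past 2-fold are to be read beside the shares over all genes, 1.43% above and 2.31% below. The highest list medians were those of glucocorticoid-responsive genes (0.83), neutrophil granule and myeloid genes (0.66), acute-phase genes (0.46) and cytokine response genes (0.41). The lowest were those of immediate early and activity-regulated genes (-0.30), heat shock proteins and co-chaperones (-0.28) and endoplasmic reticulum chaperones (-0.28).

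**Figure D1:**
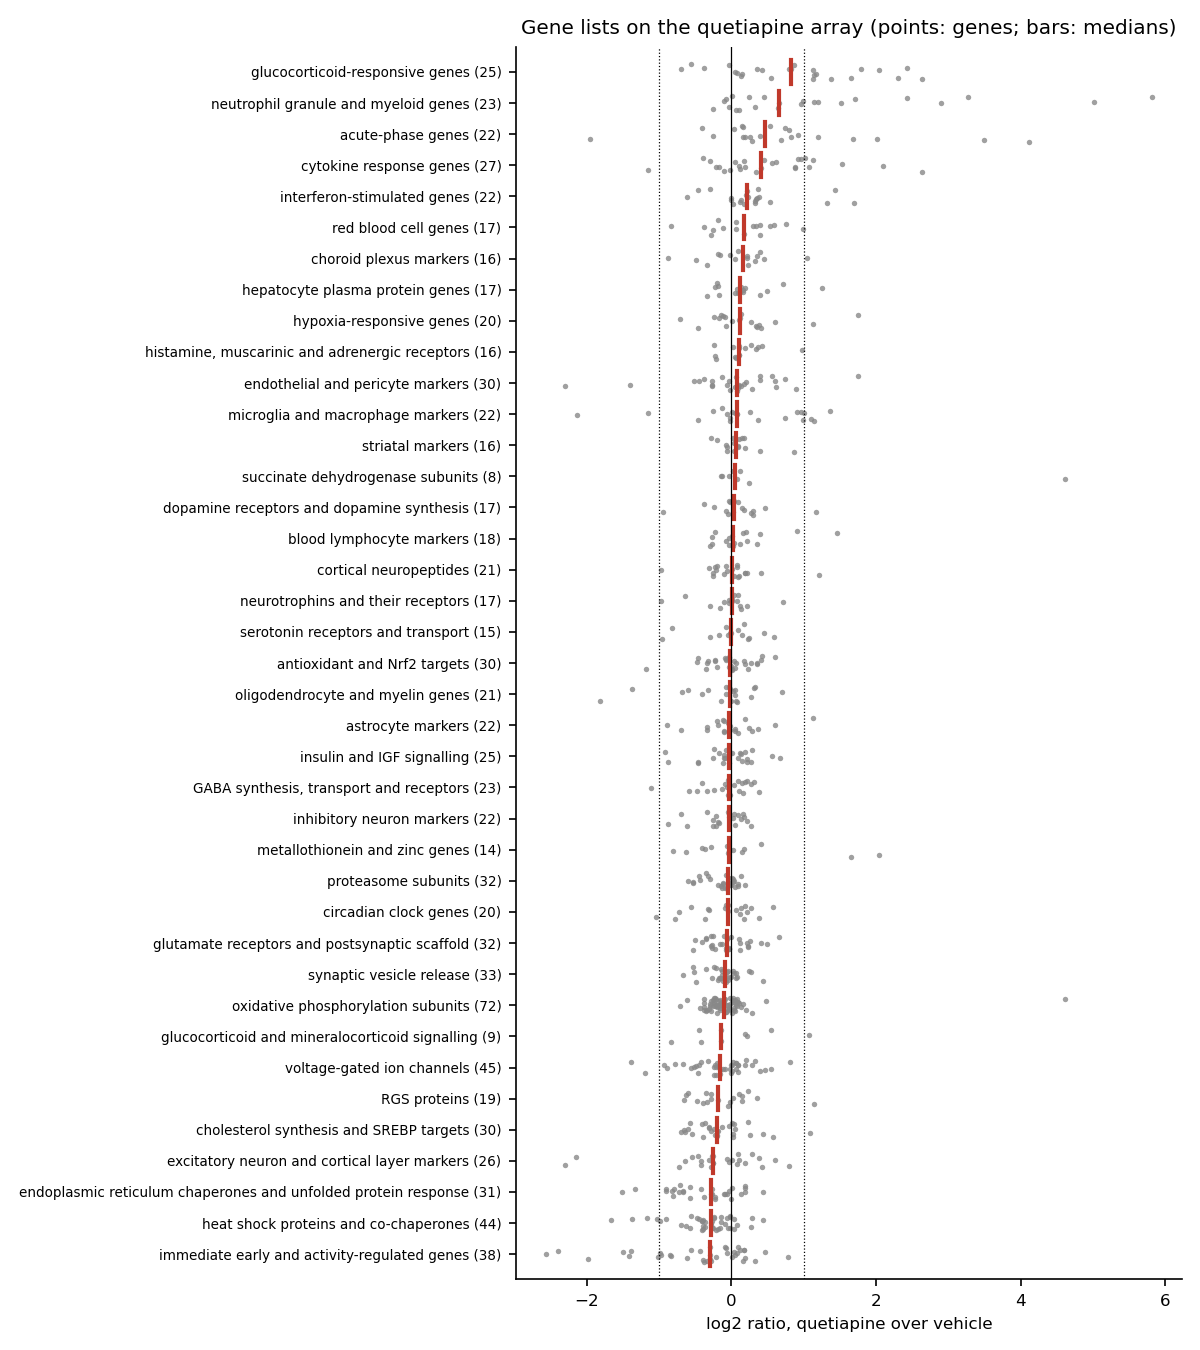
Log2 ratio of quetiapine over vehicle (horizontal axis) for the measured members of each of 39 gene lists, 1 row per list with its number of measured genes in brackets. Grey points are genes, red bars are list medians, and dotted lines mark 2-fold. List medians run between -0.30 for immediate early and activity-regulated genes and 0.83 for glucocorticoid-responsive genes, and the points farthest to the right are S100a9, S100a8 and Sdhd.

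Neutrophil genes held the highest ratios of the array. S100a9, a subunit of the calcium-binding protein calprotectin of neutrophils, was 5.81 above vehicle with quetiapine, against 0.29 with chlorpromazine, 2.48 with thioridazine and 0.83 with olanzapine. S100a8, its partner subunit, was 5.02 with quetiapine, against 0.03 with chlorpromazine, 1.77 with thioridazine and 0.25 with olanzapine. These ratios correspond to 56.2-fold and 32.4-fold more RNA than with vehicle. Both subunits were highest with quetiapine and next highest with thioridazine. Of 23 measured neutrophil and myeloid genes, 19 were above vehicle, 9 at least 2-fold, and 0 were 2-fold below.

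The 9 genes past 2-fold with quetiapine included several stored in the secondary and tertiary granules of neutrophils. Ngp, a neutrophil granule protein, was 3.27 with quetiapine, against -0.18 with chlorpromazine, 0.33 with thioridazine and 3.26 with olanzapine. Camp, the precursor of the antimicrobial peptide cathelicidin, was 2.90 with quetiapine, against -0.74 with chlorpromazine, 0.30 with thioridazine and 1.16 with olanzapine. Lcn2, a lipocalin that binds bacterial siderophores, was 2.44 with quetiapine, against -0.03 with chlorpromazine, 1.41 with thioridazine and -0.21 with olanzapine. So Ngp was as high with olanzapine as with quetiapine, while Camp and Lcn2 were highest with quetiapine. Pglyrp1, a peptidoglycan recognition protein, was 1.71, the formyl peptide receptor Fpr2 1.52, the anti-inflammatory annexin Anxa1 1.19 and lactoferrin (Ltf) 1.14 with quetiapine.

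Enzymes of the primary granules and some surface receptors of neutrophils, named after their values were seen, lay closer to vehicle. With quetiapine Mpo, the myeloperoxidase of these granules, was 0.65, the proteases Prtn3, Ctsg and Elane were 0.45, 0.32 and 0.01, and the receptors Csf3r and Cxcr2 were 0.11 and 0.06. Of the other receptors on the list, Fpr2 was past 2-fold (above) and the interleukin decoy receptor Il1r2 was 0.96. The lowest members were Mmp8, a collagenase of the secondary granules, at -0.11 and Itgam, an integrin subunit of myeloid cells, at -0.25. Mmp9, a gelatinase of the tertiary granules named after its value was seen, was -0.07. The high ratios thus did not extend to every neutrophil gene on the list, nor to every gene of the secondary and tertiary granules. Lymphocyte markers, as another blood cell type, had a median of 0.03 over 18 genes, with the T cell receptor chain gene Cd3d at 1.46 and Cd3g, of the same receptor complex, at -0.29. Genes of red blood cells had a median of 0.18 over 17 genes, and 0 of them passed 2-fold. The part of blood cells in the neutrophil result was not tested.

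Acute-phase genes, which many tissues switch on in inflammation, were above vehicle in 19 of 22 cases with quetiapine, 5 at least 2-fold and 1 at least 2-fold below. Their median was 0.46 with quetiapine, against 0.08 with chlorpromazine, 0.53 with thioridazine and 0.36 with olanzapine. The list was thus highest with thioridazine. Saa3, a serum amyloid A made outside the liver, was 4.12 with quetiapine, against 2.34 with thioridazine and 1.25 with olanzapine, and had no ratio with chlorpromazine. Haptoglobin (Hp), which binds free haemoglobin, was 3.49 with quetiapine, against 1.22 with chlorpromazine, 1.47 with thioridazine and 1.0 with olanzapine. Hp was therefore above vehicle on all 4 arrays and highest with quetiapine. The serpin Serpina3n, a marker of reactive astrocytes in mouse, was 2.01 with quetiapine, against 0.20 with chlorpromazine, 2.07 with thioridazine and 0.40 with olanzapine. Lrg1, a leucine-rich glycoprotein of blood vessels, was 1.68 and ceruloplasmin (Cp), a copper-carrying ferroxidase, 1.19 with quetiapine. Below vehicle were the pentraxin Apcs at -0.41, the serum amyloid Saa2, named after its value was seen, at -0.25, and Steap4, a metalloreductase, at -1.96 with quetiapine, against 0.37 with chlorpromazine, 0.36 with thioridazine and 0.29 with olanzapine. Genes of plasma proteins typical of hepatocytes had a median of 0.12 over 17 genes, with only the albumin relative afamin (Afm) past 2-fold, at 1.26 with quetiapine, against 1.61 with chlorpromazine, 1.20 with thioridazine and 1.18 with olanzapine.

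Promoters of S100a9, Saa3 and Ngp are shown for the motif of the C/EBP family, factors known to drive granule and acute-phase genes. Whether these factors had a part in the ratios was not tested. Capitals mark matches to TTGCNNAA on either strand, in windows of 250 bases before to 50 after the start of the gene, from RefSeq on GRCm38.p6. The motif was found in 7 of 22 windows (31.8%) of neutrophil and myeloid genes and in 10 of 19 windows (52.6%) of acute-phase genes, against 9.47% of all 16267 windows of measured genes. Of the acute-phase carriers, only Saa3 and Cp were past 2-fold above vehicle with quetiapine. Steap4 was past 2-fold below, and the others lay between -0.25 (Saa2) and 0.93 (Orm2). Hp, Serpina3n and Lrg1 were not among the carriers. The neutrophil carriers included Fcnb at -0.03 and Mmp8 at -0.11, and S100a8 and Camp were not among them. A window was available for 22 of 23 neutrophil and 18 of 22 acute-phase members, so a gene that is not a carrier may not have been searched. A match is a description of the letters and not evidence of binding. The windows lie at chr3:90695672-90695971 (minus strand), chr7:46715627-46715926 (minus strand) and chr9:110419558-110419857 (plus strand).
S100a9: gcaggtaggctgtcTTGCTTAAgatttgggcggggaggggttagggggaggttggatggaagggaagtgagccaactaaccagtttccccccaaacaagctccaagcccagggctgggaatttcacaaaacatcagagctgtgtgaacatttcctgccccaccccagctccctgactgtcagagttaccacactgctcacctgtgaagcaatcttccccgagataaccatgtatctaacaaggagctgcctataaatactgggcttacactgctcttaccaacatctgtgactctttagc
Saa3: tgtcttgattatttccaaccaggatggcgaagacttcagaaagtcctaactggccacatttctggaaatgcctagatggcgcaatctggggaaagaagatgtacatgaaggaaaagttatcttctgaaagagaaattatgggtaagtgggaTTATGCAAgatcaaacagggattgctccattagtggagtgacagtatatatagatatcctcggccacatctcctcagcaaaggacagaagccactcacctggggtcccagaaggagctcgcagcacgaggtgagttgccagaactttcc
Ngp: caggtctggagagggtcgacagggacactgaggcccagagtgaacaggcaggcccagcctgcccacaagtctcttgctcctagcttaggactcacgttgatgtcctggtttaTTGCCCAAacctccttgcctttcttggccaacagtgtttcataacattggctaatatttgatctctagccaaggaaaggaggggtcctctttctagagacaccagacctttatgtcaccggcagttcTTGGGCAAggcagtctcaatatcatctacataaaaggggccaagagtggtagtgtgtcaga

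Cytokine response genes had a median of 0.41 over 27 genes with quetiapine, with 20 above vehicle, 6 at least 2-fold above and 1 at least 2-fold below. The median was 0.05 with chlorpromazine, 0.25 with thioridazine and 0.40 with olanzapine, so olanzapine was close to quetiapine. The transcription factor gene Cebpd was 2.63 with quetiapine, against 0.86 with chlorpromazine, 1.69 with thioridazine and 1.20 with olanzapine. Cebpb, of the same family, was 1.02 with quetiapine, against 0.44 with chlorpromazine, -0.10 with thioridazine and 0.88 with olanzapine. Ch25h, an enzyme that makes an antiviral oxysterol, was 2.09 with quetiapine, against 0.80 with chlorpromazine, 0.93 with thioridazine and 0.40 with olanzapine. All 3 were highest with quetiapine, the array they were chosen on. Bcl3, a nuclear partner of NF-kappaB, was 1.52 with quetiapine and higher, at 2.14, with olanzapine. Nfkbia, the inhibitor of NF-kappaB, was 1.13 and the interleukin receptor Il1r1 1.08 with quetiapine. Tnfaip3, another inhibitor of the pathway, was -1.15 with quetiapine, against -0.47 with chlorpromazine, -0.56 with thioridazine and -0.41 with olanzapine, and the chemokine Cxcl2 was -0.40. Of the cytokines themselves, named after their values were seen, Tnf at 0.12 and Il6 at -0.17 lay closer to vehicle. Il1b was 0.88 with quetiapine, against a mean of -0.88 over the other drugs.

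Interferon-stimulated genes were above vehicle in 18 of 22 cases with quetiapine, with a median of 0.22, 3 past 2-fold above and 0 below. The median was -0.07 with chlorpromazine, higher at 0.34 with thioridazine, and 0.08 with olanzapine. The chemokine Cxcl10 was 1.69 with quetiapine, against 0.00 with chlorpromazine, 2.72 with thioridazine and 0.81 with olanzapine. The regulator Irf7 was 1.44 with quetiapine, against 0.41 with chlorpromazine, 1.22 with thioridazine and 3.39 with olanzapine. Ifit3, an inhibitor of viral RNA translation, was 1.32 with quetiapine, against 0.09 with chlorpromazine, 0.63 with thioridazine and 0.38 with olanzapine. Of these only Ifit3 was highest with quetiapine.

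Glucocorticoid-responsive genes had the highest median of the 39 lists with quetiapine, 0.83 over 25 genes, against 0.11 with chlorpromazine, 0.08 with thioridazine and 0.37 with olanzapine. On the quetiapine array 21 were above vehicle, 11 at least 2-fold above and 0 at least 2-fold below. Cebpd, Lcn2 and Nfkbia, given above, belong to this list too. Without the members that another list also holds, the median of the other 13 was 0.83. The sulfotransferase Sult1a1 was 2.31 with quetiapine, against 0.63 with chlorpromazine, -0.05 with thioridazine and 0.08 with olanzapine. Map3k6, a stress-activated kinase, was 1.79 with quetiapine, against 0.67 with chlorpromazine, 0.20 with thioridazine and 0.77 with olanzapine. The lipid droplet gene Plin4 was 1.38, the lipase inhibitor Angptl4 1.17, the arrestin relative Arrdc2 1.15 and the mTOR inhibitor Ddit4 1.13. Quetiapine gave the highest ratio of the 4 drugs for each of these 6 genes. They were named for being past 2-fold with quetiapine, a choice that favours this ranking. The lowest members were Per1, a clock gene, at -0.55, and glutamine synthetase (Glul) at -0.70 with quetiapine, against 0.24 with chlorpromazine, 0.25 with thioridazine and 0.22 with olanzapine for Glul.

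Fkbp5, Tsc22d3 and Sgk1, classical targets of the glucocorticoid receptor, were less than 2-fold from vehicle with quetiapine. Fkbp5, a co-chaperone that lowers the receptor's affinity for hormone, was 0.54 with quetiapine, against 0.09 with chlorpromazine, -0.05 with thioridazine and 0.20 with olanzapine. Tsc22d3 (Gilz) and Sgk1, named after their values were seen, were 0.87 and 0.79, and the receptor Nr3c1 was 0.22. The genes of glucocorticoid and mineralocorticoid signalling had a median of -0.14 over 9 genes. Hsd11b2, which inactivates cortisol and corticosterone, was 1.07 with quetiapine, close to its 1.09 with chlorpromazine, 1.44 with thioridazine and 1.0 with olanzapine, and the corticotropin-releasing hormone receptor Crhr1 was -0.83, against -0.11 with chlorpromazine, -0.54 with thioridazine and -0.68 with olanzapine. The palindrome made of GNACA and TGTNC with 3 bases between them, the binding motif of the receptor, was found on either strand in 3 of 31 windows (9.68%) of glucocorticoid-responsive genes, against 0.406% of all windows. The 3 windows belong to Map3k6, Mt1 and Sgk1. In the shorter window of 100 bases before to 50 after the start it was found in 1 (3.23%), that of Mt1.

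The metallothioneins, small proteins that bind zinc and copper, answer both to metals and to glucocorticoids. Mt2 was 2.04 with quetiapine, against 0.38 with chlorpromazine, 0.64 with thioridazine and 2.08 with olanzapine. Mt1 was 1.66 with quetiapine, against 0.50 with chlorpromazine, 0.45 with thioridazine and 1.12 with olanzapine. Both were more than 2-fold above vehicle with quetiapine and with olanzapine and with neither phenothiazine. The brain metallothionein Mt3, named after its value was seen, was 0.42. The zinc list as a whole had a median of -0.04 over 14 genes with quetiapine. The zinc-sensing factor Mtf1 was -0.81 and the transporter Slc30a10 -0.62 with quetiapine, against -0.32 to -0.10 and -0.06 to 0.10 with the other drugs. Both promoters are shown for the metal response elements in capitals (TGCACNC or TGCGCNC on either strand), which Mtf1 binds. These were found in 9 of 15 windows (60.0%) of the list, against 31.8% of all windows. The windows are chr8:94172368-94172667 (plus strand) and chr8:94178839-94179138 (plus strand) of GRCm38.p6, from RefSeq.
Mt2: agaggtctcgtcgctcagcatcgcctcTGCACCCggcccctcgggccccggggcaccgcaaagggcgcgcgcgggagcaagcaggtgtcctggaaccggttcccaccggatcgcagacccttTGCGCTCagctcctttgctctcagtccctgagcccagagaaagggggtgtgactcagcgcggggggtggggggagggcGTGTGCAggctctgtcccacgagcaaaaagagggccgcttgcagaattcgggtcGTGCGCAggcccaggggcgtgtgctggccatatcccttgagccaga
Mt1: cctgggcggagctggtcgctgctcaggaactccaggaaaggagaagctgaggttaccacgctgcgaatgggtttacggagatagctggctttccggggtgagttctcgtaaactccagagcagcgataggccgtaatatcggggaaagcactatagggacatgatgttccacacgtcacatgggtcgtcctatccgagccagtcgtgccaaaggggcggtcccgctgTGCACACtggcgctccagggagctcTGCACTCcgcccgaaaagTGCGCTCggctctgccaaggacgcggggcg

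**Figure D2:**
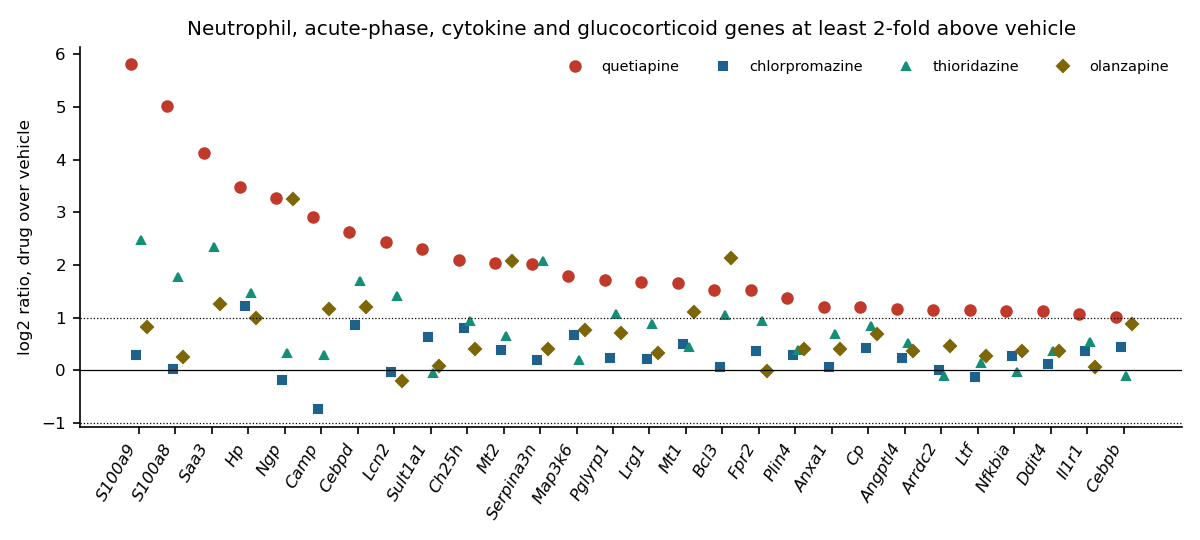
Log2 ratio of drug over vehicle (vertical axis) for the neutrophil, acute-phase, cytokine response and glucocorticoid-responsive genes at least 2-fold above vehicle on the quetiapine array, ordered by that ratio. Each point is 1 array, coloured by drug, and dotted lines mark 2-fold. The genes were chosen by their quetiapine ratio, S100a9 at 5.81 is the highest, and Mt2 with olanzapine (2.08) lies beside its quetiapine value (2.04).

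Immediate early and activity-regulated genes lay on the other side of vehicle. Of 38 measured with quetiapine, 25 were below vehicle, 7 at least 2-fold below and 0 at least 2-fold above, and the median was -0.30, against -0.06 with chlorpromazine, -0.15 with thioridazine and 0.20 with olanzapine. Arc, a synaptic protein that is made in recently active neurons, was -2.56 with quetiapine, against -0.78 with chlorpromazine, -0.96 with thioridazine and -0.44 with olanzapine. The transcription factor Egr2 was -2.40 with quetiapine, against -1.10 with chlorpromazine, -0.73 with thioridazine and -0.23 with olanzapine. Arc and Egr2 were thus below vehicle on all 4 arrays and lowest with quetiapine, the array they were chosen on. Egr1, of the same zinc finger family, was -1.98 with quetiapine, against -0.30 with chlorpromazine, -0.62 with thioridazine and -0.23 with olanzapine. Klf10, another zinc finger factor, was -1.5 with quetiapine, against -0.73 with chlorpromazine, -0.53 with thioridazine and 0.10 with olanzapine. Inhba, an activin subunit, was -1.42 with quetiapine, against -0.12 with chlorpromazine, -0.10 with thioridazine and 0.27 with olanzapine. The remaining members past 2-fold were Ier5 at -1.39 and the phosphatase Dusp6 at -1.02. The neurotrophin Bdnf was -0.97 with quetiapine, against -0.16 with chlorpromazine, -0.31 with thioridazine and 0.38 with olanzapine.

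Other early genes, named after their values were seen, were spread between these values and vehicle. Fosl2 was -0.99, the nuclear receptor Nr4a1 -0.85, Egr4 -0.84, Egr3 -0.39, Junb -0.30 and Fos -0.28 with quetiapine, while Npas4 was -0.09, Fosb 0.20, Homer1 -0.07 and Nptx2 0.07. With olanzapine, Fos, Junb and Npas4 were on the other side of vehicle, with Fos at 0.82, Junb at 0.98 and Npas4 at 1.19. The highest members with quetiapine were the phosphatase Dusp5 at 0.78 and Gadd45g, a stress-inducible gene, at 0.47. One of the 5 RefSeq windows of Egr2, chr10:67537316-67537615 (plus strand) on GRCm38.p6, is shown with its CArG box in capitals, the motif of serum response factor, which drives early genes after activity. The CArG box was found in 5 of 41 windows (12.2%) of the list, all of Egr2 or Dusp5, against 1.43% of all windows.
Egr2: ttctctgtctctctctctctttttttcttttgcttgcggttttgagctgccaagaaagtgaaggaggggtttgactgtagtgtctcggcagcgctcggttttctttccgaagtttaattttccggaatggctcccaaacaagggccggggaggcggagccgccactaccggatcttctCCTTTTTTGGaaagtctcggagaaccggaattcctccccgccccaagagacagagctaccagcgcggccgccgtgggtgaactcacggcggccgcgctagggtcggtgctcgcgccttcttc

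Heat shock proteins and co-chaperones, which fold proteins in the cytosol, were below vehicle in 38 of 44 cases with quetiapine, 4 at least 2-fold, and 0 were at least 2-fold above. The median was -0.28 with quetiapine, against -0.04 with chlorpromazine, -0.21 with thioridazine and -0.13 with olanzapine. The inducible chaperone Hspa1a was -1.67 with quetiapine, against 0.13 with chlorpromazine, -1.49 with thioridazine and -0.67 with olanzapine. The heat shock factor Hsf2 was -1.38 with quetiapine, against 0.03 with chlorpromazine, -1.15 with thioridazine and -0.71 with olanzapine. The constitutive chaperone Hspa8 was -1.17 with quetiapine, against -0.23 with chlorpromazine, -0.74 with thioridazine and -0.54 with olanzapine. For each of these the next lowest array was thioridazine and the nearest to vehicle was chlorpromazine. Dnajb2, a neuronal co-chaperone, was -1.03 with quetiapine, against 0.44 with chlorpromazine, -0.40 with thioridazine and -0.48 with olanzapine. Just short of 2-fold were Chordc1 at -0.99 and Dnajb1 at -0.90, and Hsph1, a nucleotide exchange factor for Hspa8, was -0.69. These 3 were named after their values were seen. The highest members were the small heat shock protein Hspb8 at 0.44 and Hspa2 at 0.29. The window of Hsph1 is shown because it holds a full heat shock element, in capitals, which is GAA, TTC and GAA, or TTC, GAA and TTC, with 2 bases between neighbours. Such elements were found in 7 of 51 windows (13.7%) of the list, against 0.498% of all windows. The carriers were Chordc1, Hsph1, Hspd1 (-0.37 with quetiapine), Hspe1 (-0.36) and Dnajb6 (-0.02). None of the members past 2-fold was among them. Only 37 of the 44 members had a window, so a member that is not a carrier may not have been searched. The window of Hsph1 lies at chr5:149636287-149636586 (minus strand) on GRCm38.p6.
Hsph1: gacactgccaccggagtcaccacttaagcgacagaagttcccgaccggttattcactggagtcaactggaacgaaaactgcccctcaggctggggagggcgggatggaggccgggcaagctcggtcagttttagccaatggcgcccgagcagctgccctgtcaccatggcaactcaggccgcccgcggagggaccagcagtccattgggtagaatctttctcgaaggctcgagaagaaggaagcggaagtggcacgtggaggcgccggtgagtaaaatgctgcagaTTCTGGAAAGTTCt

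Chaperones of the endoplasmic reticulum and genes of the unfolded protein response were below vehicle in 24 of 31 cases with quetiapine, 2 at least 2-fold, with a median of -0.28, against -0.12 with chlorpromazine, -0.22 with thioridazine and -0.14 with olanzapine. Hspa5 (BiP), the main chaperone of this compartment, was -1.52 with quetiapine, against 0.05 with chlorpromazine, -0.43 with thioridazine and -0.65 with olanzapine. Its partner Sdf2l1 was -1.33 with quetiapine, against -0.12 with chlorpromazine, -0.63 with thioridazine and -0.48 with olanzapine. Both were lowest with quetiapine, the array they were chosen on. Named after their values were seen, the disulfide isomerases Pdia4 and Pdia6 were -0.91 and -0.80, the co-chaperone Dnajc3 -0.91, Creld2 -0.82, calreticulin (Calr) -0.71, Hsp90b1 -0.57, Xbp1 -0.72 and Atf4 -0.57. The death-associated factor Ddit3 was -0.26. The highest were the stress sensor Atf6 at 0.44 and Asns, which makes asparagine, at 0.19. The ER stress element, which is CCAAT and CCACG with 9 bases between them and is bound by Atf6, was found on either strand in 9 of 27 windows (33.3%) of the list, against 0.135% of all 16267 windows. The windows of Hspa5, at chr2:34771840-34772139 (plus strand), and of Pdia6, at chr12:17266339-17266638 (plus strand), are shown with the element in capitals.
Hspa5: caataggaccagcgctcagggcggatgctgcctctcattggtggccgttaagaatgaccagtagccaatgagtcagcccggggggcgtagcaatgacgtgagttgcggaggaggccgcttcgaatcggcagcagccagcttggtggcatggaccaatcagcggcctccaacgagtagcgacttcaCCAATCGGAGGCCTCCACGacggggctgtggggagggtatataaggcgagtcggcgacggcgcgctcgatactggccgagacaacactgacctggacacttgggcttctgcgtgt
Pdia6: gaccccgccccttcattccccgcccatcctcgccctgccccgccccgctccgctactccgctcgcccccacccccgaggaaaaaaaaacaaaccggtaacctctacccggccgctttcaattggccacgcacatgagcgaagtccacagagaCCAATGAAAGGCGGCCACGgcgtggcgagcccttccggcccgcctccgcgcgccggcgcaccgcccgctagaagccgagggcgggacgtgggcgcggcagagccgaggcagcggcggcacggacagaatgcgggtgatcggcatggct

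The 32 measured subunits of the proteasome, which degrades proteins, lay closer to vehicle with quetiapine. Their median was -0.05, with 23 below vehicle, 0 past 2-fold, and a range of -0.60 for Psmc3 to 0.19 for Psmb1.

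**Figure D3:**
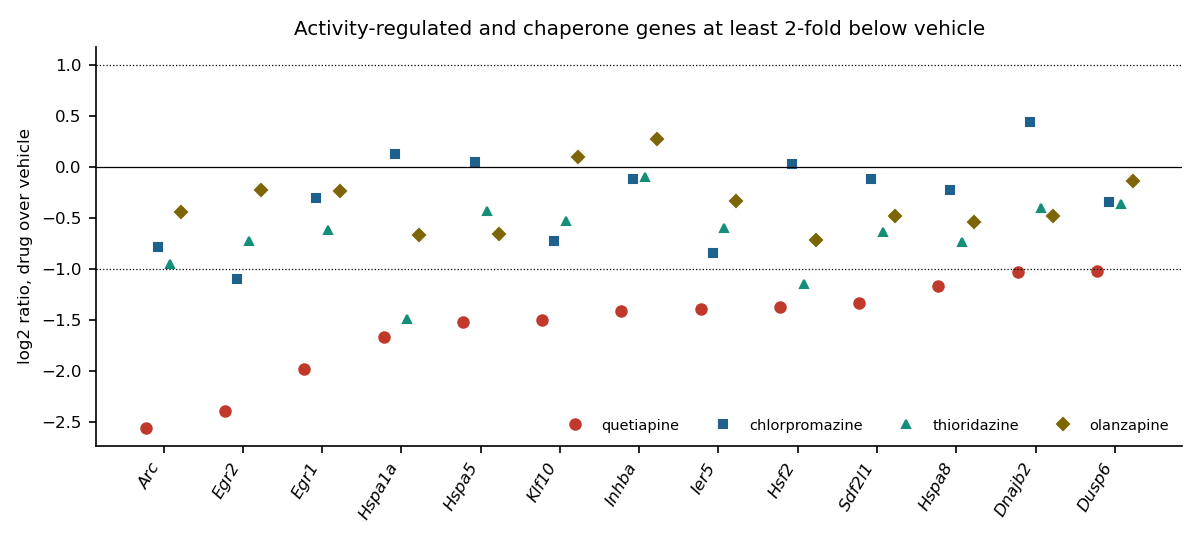
Log2 ratio of drug over vehicle (vertical axis) for activity-regulated and chaperone genes at least 2-fold below vehicle on the quetiapine array, ordered by that ratio. Each point is 1 array, coloured by drug, and dotted lines mark 2-fold. The genes were chosen by their quetiapine ratio, which runs between -2.56 for Arc and -1.02 for Dusp6, and Hspa1a with thioridazine (-1.49) is close to its quetiapine value (-1.67).

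The receptors that quetiapine blocks had ratios close to vehicle. Htr2a, the serotonin receptor at which atypical antipsychotics act, was -0.01 with quetiapine, against 0.53 with chlorpromazine, -0.36 with thioridazine and 0.41 with olanzapine. The dopamine receptor Drd2 was 0.17 with quetiapine, against 0.08 with chlorpromazine, 0.24 with thioridazine and 0.31 with olanzapine. The histamine receptor Hrh1 was 0.10 with quetiapine, against -0.22 with chlorpromazine, -0.96 with thioridazine and 0.60 with olanzapine. All 3 were within 1.5-fold of vehicle with quetiapine. The alpha-adrenergic receptor Adra1b was higher, at 0.97 with quetiapine, against 1.15 with chlorpromazine, 0.71 with thioridazine and -0.07 with olanzapine. Adra1a and Adra1d are not analysed here.

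Of 15 measured serotonin genes 0 passed 2-fold with quetiapine, where 3.74% of all measured genes did, and the median was 0.00. A count of 0 or 1 in receptor lists this short does not set them apart from all genes. Htr1a was 0.14, Htr2c 0.23, Htr5b 0.59 and Htr7 0.45, while Htr2b was -0.95 and Htr4 -0.83. Htr2b was below vehicle on all 4 arrays, with -0.51 with chlorpromazine, -0.86 with thioridazine and -0.69 with olanzapine, whereas Htr4 was -0.08 with chlorpromazine, 0.37 with thioridazine and 0.91 with olanzapine. The transporter Slc6a4 was -0.07. Of 17 dopamine genes 1 passed 2-fold, the dopamine transporter Slc6a3, at 1.17 with quetiapine, against 0.34 with chlorpromazine, 0.07 with thioridazine and -1.01 with olanzapine. Dopamine is carried into the cortex by axons whose cell bodies lie in the midbrain. The receptors Drd1, Drd3 and Drd4 were 0.09, -0.05 and 0.27 with quetiapine. Ddc, which makes both dopamine and serotonin, was -0.95 with quetiapine and also below vehicle with the other drugs, at -0.56 with chlorpromazine, -0.86 with thioridazine and -1.0 with olanzapine. Of 16 histamine, muscarinic and adrenergic genes 13 were above vehicle, 0 past 2-fold, with a median of 0.10. The muscarinic receptors Chrm1 to Chrm5 ran between -0.24 (Chrm3) and 0.19 (Chrm5).

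Genes of neuronal signalling were mostly slightly below vehicle with quetiapine. Voltage-gated ion channels, a list that also holds the leak channel Kcnk2, had a median of -0.15 over 45 genes, with 27 below vehicle and 2 at least 2-fold. Kcnk2, a potassium channel that sets the resting potential, was -1.39 with quetiapine, against 0.11 with chlorpromazine, 0.34 with thioridazine and 0.07 with olanzapine. The sodium channel Scn1a, of inhibitory interneurons, was -1.19 with quetiapine as the mean of 3 features that ran between -1.94 and -0.74, and with all features as separate rows its median was -0.90. For synaptic vesicle genes the median was -0.09, and 25 of 33 were below vehicle with 0 past 2-fold. Glutamate receptor and postsynaptic genes had -0.06, with 22 of 32 below and 0 past 2-fold. GABA genes had -0.03 over 23 genes, and the extrasynaptic receptor subunit Gabrd was -1.11 with quetiapine, against -0.24 with chlorpromazine, -1.10 with thioridazine and -0.59 with olanzapine. Cortical neuropeptides had a median of 0.01 over 21 genes, with relaxin (Rln1) at 1.22. RGS proteins, which switch off G protein signals, had a median of -0.19 over 19 genes, with Rgs4 at -0.66 and Rgs13 at 1.15.

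Markers of cell types gave small medians with wide members. Excitatory neuron and cortical layer markers had a median of -0.25 over 26 genes with quetiapine, and 2 were at least 2-fold below. The layer marker Rasgrf2 was -2.31 with quetiapine, against -1.10 with chlorpromazine, -0.34 with thioridazine and 0.21 with olanzapine, and the Wnt agonist Rspo1 was -2.15, against 0.22 with chlorpromazine, -1.75 with thioridazine and -0.43 with olanzapine. Microglia and macrophage markers split in opposite directions, with a median of 0.08 over 22 genes. Above vehicle were the scavenger receptor Cd163 at 1.37, the complement gene C1qa at 1.15, the protease Ctss at 1.10 and the Fc receptor Fcgr3 at 1.01 with quetiapine. Below it were P2ry12, a receptor of resting microglia, at -1.16, against -0.36 with chlorpromazine, -0.15 with thioridazine and -0.38 with olanzapine, and the lectin Siglech at -2.14, against -0.22 with chlorpromazine, -1.0 with thioridazine and -0.34 with olanzapine.

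Astrocyte markers had a median of -0.03 over 22 genes with quetiapine, with the filament protein Vim at 1.13 and the water channel Aqp4 at -0.89. Vim was above vehicle with the other drugs too, at 0.41 with chlorpromazine, 1.33 with thioridazine and 1.72 with olanzapine. Oligodendrocyte and myelin genes had a median of -0.02 over 21 genes, with 2 at least 2-fold below. The myelin protein Mal was -1.81 with quetiapine, against 0.42 with chlorpromazine, -0.06 with thioridazine and -0.21 with olanzapine, and Bcas1 was -1.37, against 0.19 with chlorpromazine, -1.36 with thioridazine and -0.30 with olanzapine. For endothelial and pericyte markers the median was 0.08 over 30 genes, with members far on both sides. The glucose transporter Slc2a1 was 1.75 with quetiapine, against 0.62 with chlorpromazine, 1.34 with thioridazine and 0.48 with olanzapine, and the angiopoietin receptor Tek was -2.31, against 0.17 with chlorpromazine, 0.04 with thioridazine and 0.12 with olanzapine. The phospholipid transfer protein Pltp was -1.40. Inhibitory neuron, striatal and choroid plexus markers had medians of -0.04 over 22 genes, 0.06 over 16 and 0.15 over 16, and the water channel Aqp1 was the 1 of them past 2-fold, at 1.05.

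Metabolic lists had medians between -0.20 and 0.11 with quetiapine, with single genes farther out. Oxidative phosphorylation subunits had a median of -0.11 with quetiapine, with 51 of 72 below vehicle. Sdhd, a membrane anchor of succinate dehydrogenase, was 4.62 with quetiapine, 4.72 with chlorpromazine, 2.70 with thioridazine and -4.05 with olanzapine. The other members ranged between -0.71 (Ndufab1) and 0.48 (Cox7c) with quetiapine, and the other subunits and assembly factors of succinate dehydrogenase between -0.14 (Sdhb) and 0.24 (Sdhaf1). Sdhd therefore stood apart from its own complex. Cholesterol synthesis genes had a median of -0.20 over 30 genes with quetiapine, against -0.11 with chlorpromazine, -0.18 with thioridazine and -0.23 with olanzapine, and 20 were below vehicle with quetiapine. Among them Hmgcs1, of the first steps of the pathway, was -0.65 and Mvd -0.69, and lanosterol synthase (Lss) was 1.09 with quetiapine and 1.18 with chlorpromazine, 1.24 with thioridazine and 1.41 with olanzapine. Antioxidant genes had -0.02 over 30, with the extracellular superoxide dismutase Sod3 at -1.18. Hypoxia-responsive genes had 0.11 over 20, with Slc2a1 and Ddit4 past 2-fold. Circadian clock genes had -0.05 over 20, with the core factor Arntl (Bmal1) at -1.04 with quetiapine, against -0.04 with chlorpromazine, -0.45 with thioridazine and -0.88 with olanzapine.

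Among the 15 highest genes with quetiapine, those outside these lists were Pirb, an inhibitory receptor of myeloid cells, at 3.42, the glycosyltransferase B3gnt8 at 3.31, the lysosomal transcription factor Tfeb at 3.15, Ctla2a, a cysteine protease inhibitor, at 2.98, the chromatin protein Hmgb2 at 2.45 and the protease inhibitor Spink8 at 2.45. Pirb was also above vehicle with the other drugs, at 1.39 with chlorpromazine, 3.27 with thioridazine and 2.67 with olanzapine, whereas Tfeb was -3.22 with chlorpromazine, 0.80 with thioridazine and 0.24 with olanzapine. Ctla2a was 0.41 with chlorpromazine, 1.07 with thioridazine and 1.10 with olanzapine, and Hmgb2 and Spink8 were between 0.43 and 0.87 there. Among the 15 lowest were the ubiquitin ligase Trim65 at -3.69, the lymphocyte adhesion receptor Cd226 at -2.76, the centromere protein Cenpo at -2.74, Papln at -2.63, the mTORC1 subunit Rptor at -2.32, the choline dehydrogenase Chdh at -2.27, L3hypdh at -2.25, the coactivator Trip4 at -2.23 and the developmental factor Tbx5 at -2.22. Cd226 was also below vehicle with the other drugs, at -1.39 with chlorpromazine, -2.23 with thioridazine and -1.98 with olanzapine, as was Chdh, at -0.76 with chlorpromazine, -1.18 with thioridazine and -2.0 with olanzapine. Trim65, the lowest, was above vehicle with each of the other drugs, at 0.80 with chlorpromazine, 0.52 with thioridazine and 1.41 with olanzapine. Each of these rested on 1 feature. Of the 10 genes past 2-fold that had several features, 3 had every feature past 2-fold, namely Cstdc6 (1.70 and 2.39), Ankrd26 (-1.60 and -1.59) and Gli3 (-1.31 and -1.05).

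Quetiapine was then set against the mean of the other 3 drugs in one model over all 16139 genes measured on every array, where a dye bias or vehicle RNA common to the arrays cancels. The quetiapine array was assumed to vary like the other 3, the doses in mg/kg differed, and the p-values measure only the spread between the chlorpromazine, thioridazine and olanzapine arrays, which are different drugs and not replicates of one treatment. With limma and Benjamini-Hochberg adjustment at 0.05, 0 genes were called (0%), and the smallest adjusted p was 0.323. At an unadjusted p under 0.05 there were 1020 genes (6.32%), 388 higher and 632 lower with quetiapine, where 807 would be counted by chance. With an ordinary t statistic in place of the moderated one 0 were called and 1001 had an unadjusted p under 0.05. The 95% interval of a difference, not adjusted for the number of genes, had a median half-width of 0.53. It is no limit of detection, since far larger differences were also not called.

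The differences with the smallest unadjusted p are given as values, since none passed the adjusted threshold. B3gnt8 was 3.31 with quetiapine and 0.04 to 0.39 with the other drugs, a difference of 3.08 with a limma interval of 2.53 to 3.63 (adjusted p 0.323). Hp differed by 2.26 (interval 1.59 to 2.92, adjusted p 0.402 with limma), and the cystatin gene Cstdc6 by 2.05, the immunoglobulin receptor Pigr by 2.03 and the scramblase Plscr1 by 1.86. Cenpo was -2.74 with quetiapine and 0.20 to 0.44 with the other drugs, a difference of -3.04 with a limma interval of -3.51 to -2.56 (adjusted p 0.323). The histone demethylase Kdm4a differed by -2.47, Tek by -2.42, Steap4 by -2.30 and the kinase Dyrk1a by -1.89. For Arhgap11a, a gene of dividing cells, the difference of 1.89 came with 0.12 with quetiapine, against -1.54 with chlorpromazine, -1.75 with thioridazine and -2.01 with olanzapine. It was thus near vehicle with quetiapine and below it with the others.

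**Figure D4:**
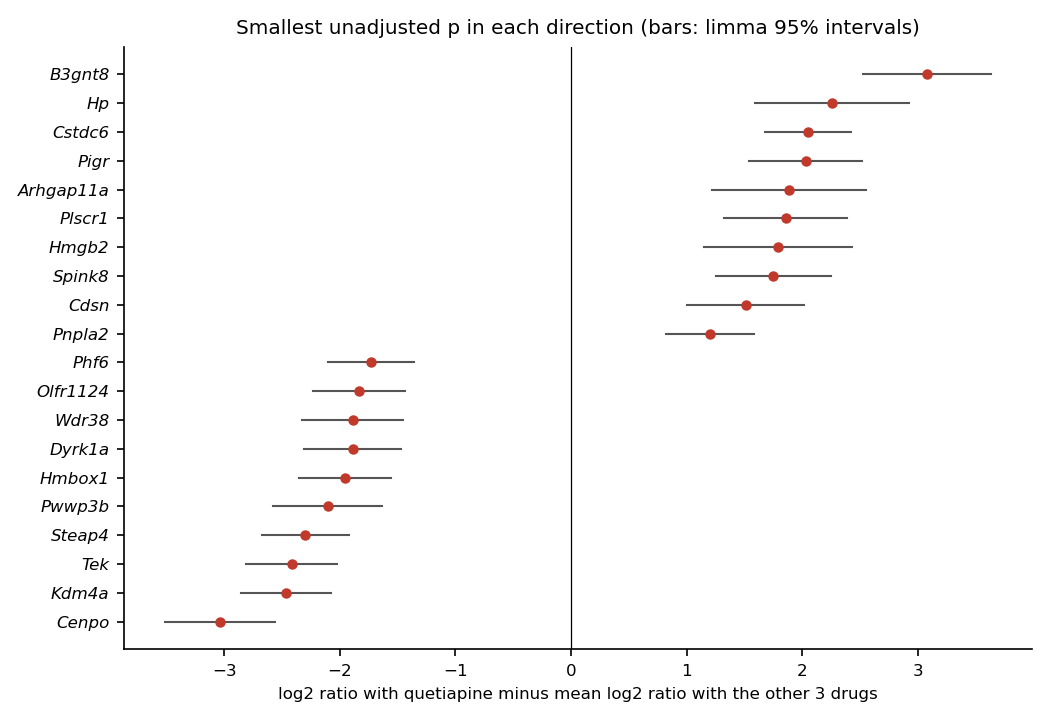
Log2 ratio with quetiapine minus the mean log2 ratio with the other 3 drugs (horizontal axis) for the 10 genes higher and the 10 lower with quetiapine that had the smallest unadjusted p. Points are differences and bars are limma 95% intervals, from 4 arrays. B3gnt8 at 3.08 and Cenpo at -3.04 lie farthest out, and 0 of the genes passed the adjusted threshold.

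In the same model, glucocorticoid-responsive and neutrophil genes had the highest median differences of the 39 lists and activity-regulated genes the lowest, with 0 genes called in each. These differences reuse the quetiapine ratios that ranked the lists above, so they give no separate support for that ranking. Over all genes tested 7484 were higher and 8647 lower with quetiapine, with a median difference of -0.02. Of 25 glucocorticoid-responsive genes 18 were higher, with a median difference of 0.79. Of 23 neutrophil genes 18 were higher, with a median of 0.73. The difference for S100a9 was 4.61 with a wide interval of 1.90 to 7.32 (limma, adjusted p 0.642), and for Ngp 2.13 with an interval of -2.26 to 6.53 that includes 0. Of 38 activity-regulated genes 31 were lower, with a median of -0.36. Arc differed by -1.83 (interval -2.55 to -1.11, limma adjusted p 0.463) and Egr1 by -1.60 (interval -2.20 to -0.99, limma adjusted p 0.459).

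The other lists lay closer to the other drugs. Among them red blood cell genes had a median difference of 0.32 (10 of 17 higher) and cytokine response genes 0.30 (18 of 27 higher). Endoplasmic reticulum chaperones had -0.22 (22 of 31 lower). Of 44 heat shock genes 34 were lower, with a median difference of -0.18. Of 21 acute-phase genes measured on all arrays 11 were higher, with a median of 0.05. Hspa5 differed by -1.17 (interval -2.09 to -0.25, limma adjusted p 0.725), while the interval for Hspa1a, -2.93 to 0.95, includes 0. For the receptors the limma 95% intervals of the difference, not adjusted for the number of genes, were -1.40 to 0.98 for Htr2a, -0.49 to 0.41 for Drd2 and -1.58 to 2.17 for Hrh1. Each of them includes 0.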

How the data were processed

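Frontal cortex RNA of drug-injected mice (cyanine 5) and vehicle-injected mice (cyanine 3) was hybridised to 4 arrays, 1 per drug, per the labels. Per the labels, the authors used Agilent Feature Extraction 7.1 for image analysis and normalised the dyes by LOWESS after filtering features on rank consistency. The deposited value per feature was read as a log10 ratio and multiplied by 3.32 to give log2; scale, centring and direction are not stated. The deposited log10 values had a median of 0 on the quetiapine array. Values of exactly 0 (594 features with quetiapine) were taken as missing. Of 22393 features 18218 had 1 gene symbol, 16 several and 4159 none here; 18175 took the current RefSeq symbol and 43 kept the platform's. Features were averaged per gene.

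The fixed 2-fold rule replaced a test over vehicle. Quetiapine minus the mean of the other 3 arrays was fitted with limma 3.58.1 in R 4.3.3 on 16139 genes (residual degrees of freedom 2), adjusted by Benjamini-Hochberg at 0.05. The procedure was tested on simulated data. Nothing says that the arrays hold separate animals as replicates, and their number limits the precision. Promoter windows were those of 13023 genes, from RefSeq (GRCm38.p6).

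Named genes are the 15 highest and 15 lowest ratios, the 2 highest and 2 lowest members of each list with any member past 2-fold, the drug-target receptor lists, and the 10 differences with the smallest p in each direction; clone-style names were left out. Members and lists were chosen with earlier results of these data known. Alternatives were a log2 reading, zeros kept, every feature as a row, centring, scaling, a 1.5-fold rule, robust or no moderation, each array left out and a shorter promoter window. List medians without members of another list were added after seeing the data.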

Additional observations from a re-analysis of the deposited data

Results flagged for a closer look

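For 3 lists the median log2 ratio with quetiapine lay on the other side of 0 from all 3 other drugs, and none of these differences was tested. Circadian clock genes had a median of -0.0508 with quetiapine, against 0.07 with chlorpromazine, 0.02 with thioridazine and 0.09 with olanzapine. Inhibitory neuron markers had -0.0373 with quetiapine, against 0.07 with chlorpromazine, 0.11 with thioridazine and 0.15 with olanzapine. Genes of insulin and IGF signalling had -0.0303 with quetiapine, against 0.08 with chlorpromazine, 0.04 with thioridazine and 0.04 with olanzapine. Without members that another list also holds, the median of the 18 remaining clock genes was 0.0055 with quetiapine, on the same side of 0 as the other drugs. All 12 medians lie within 0.15 of 0. Members farthest from vehicle in the insulin list were the kinase subunit Pik3ca at -0.92 with quetiapine, against 0.58 with chlorpromazine, 0.10 with thioridazine and -0.10 with olanzapine, and the translation inhibitor Eif4ebp1 at 0.67, against -0.18 with chlorpromazine, 0.43 with thioridazine and 0.27 with olanzapine.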

How the results depend on the processing

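Read as log2 instead of log10, 6 genes were at least 2-fold above and 1 at least 2-fold below vehicle with quetiapine, and a 1.5-fold rule gave 820 and 1230. With zeros kept, centring, scaling or every feature as a row, both 2-fold counts stayed within 1.5 times of 233 and 375, and all 39 list medians moved by less than 0.10. The log2 reading moved 15 of the 39 medians and 217 of the 243 named ratios. Scaling moved 5 named ratios (S100a9 to 5.65, S100a8 to 4.87, Sdhd to 4.49, Saa3 to 4.00 and Trim65 to -3.58), and features as rows moved Scn1a to -0.90. Without members that another list also holds, the acute-phase median was 0.61 in place of 0.46, and 37 others moved less, of which circadian clock genes (0.0055 in place of -0.0508) and dopamine genes (-0.0149 in place of 0.0395) crossed 0; the succinate dehydrogenase list could not be given a value there. In the shorter promoter window the C/EBP motif was found in 13.6% of neutrophil and 26.3% of acute-phase windows, the ER stress element in 11.1% and the glucocorticoid element in 3.23%. Quetiapine minus the other drugs gave 0 called genes under every alternative, leaving out each other array in turn included (0 to 0, with 728 to 1258 at an unadjusted limma p under 0.05, the fewest without thioridazine). Leaving out quetiapine leaves no comparison. No paired analysis was possible because each drug has 1 array, so the drugs share fewer than 2 replicate numbers, and the number only names the array.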

Other observations

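Genes were also grouped by the stem of their symbols into 291 families with at least 8 measured members, whose median log2 ratios with quetiapine ran between -0.38 and 0.32. The highest was that of the interferon-inducible Ifi genes (0.32 over 10 genes), followed by the Hoxb homeobox genes (0.29 over 8), the annexins (0.28 over 12), the Igsf genes (0.24 over 9) and the Mcm genes, which include the subunits of the replicative helicase (0.23 over 10). Of the annexins 10 of 12 were above vehicle, with Anxa1 at 1.19 and Anxa6 at -0.47 as the extremes. Of the Mcm genes 7 of 10 were above vehicle, with Mcm3 at 0.59 and Mcm2 at -0.08. The lowest families were the nucleolar Nop genes (-0.38 over 8), the Arl small GTPases (-0.31 over 8), the Pax developmental factors (-0.31 over 9), the Exoc subunits of the exocyst (-0.29 over 8) and the Rgs genes (-0.28 over 21). In the Nop family 7 of 8 were below vehicle, between 0.31 for Nop14 and -0.62 for Nop2. These medians are descriptions of 1 array and were not tested.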
